A study of Mus musculus with 12 samples.

Results

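Markers of inhibitory neurons were followed through 12 libraries of mouse cortex. The 10 genes were chosen by name for their known roles in cells that release gamma-aminobutyric acid (GABA), and all 10 were found among the 48526 genes of each deposited table. They are Gad1, Gad2, Slc32a1, Pvalb, Sst, Vip, Npy, Reln, Lhx6 and Erbb4. Of these, 8 reached a mean of at least 1 FPKM (fragments scaled to transcript length and to the size of the library, a level per length) in at least 1 group and were tested. Reln and Erbb4 stayed under that filter and are described without a test.

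Inhibitory interneurons are a minority of cortical neurons that restrain and time the firing of their neighbours. Glutamate decarboxylases make GABA, a vesicular transporter loads it into synaptic vesicles, and the receiving cell is inhibited through GABA receptors. Most cortical interneurons fall into classes named after what they contain: parvalbumin cells that contact cell bodies, somatostatin cells that contact dendrites, and vasoactive intestinal peptide cells that inhibit other interneurons. Loss or altered activity of such cells is a long-standing subject in work on tau and dementia.

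The mice were kept on a C57Bl/6J background, untreated, and sampled at 3 or 10 months of age. At each age, 3 biological replicates were labelled as transgenic (TAU58/2) and 3 as non-transgenic controls. TAU58/2 mice carry human tau with the P301S mutation, driven by the neuronal Thy1 promoter, so the transgene is not limited to inhibitory cells. Total RNA of the cortex was sequenced after ribosomal RNA depletion. In such bulk samples fewer cells of a type and less RNA per cell cannot be told apart.

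Summed FPKM ran from 125933 to 158077 per library, and read depth is unknown. Mapt, whose product is tau, was at 43.3 to 47.6 FPKM in the 3-month transgenic libraries and 6.64 to 12.0 FPKM in the 3-month controls. Among the 10-month libraries it was at 42.6, 12.4 and 3.31 FPKM in transgenic 1, 2 and 3 and at 42.7, 8.13 and 9.08 FPKM in control 1, 2 and 3, so 1 library of each label was near the 3-month transgenic level and 2 were not. Thy1, whose promoter drives the transgene, also separated the labels at 3 months (410 to 441 against 105 to 140 FPKM). At 10 months the labels overlapped in Thy1, at 172, 114 and 159 FPKM in transgenic 1, 2 and 3 and 115, 314 and 176 FPKM in control 1, 2 and 3. The highest of these Thy1 values was in control 2, where Mapt was at 8.13 FPKM, so the 2 genes did not single out the same libraries. Directions at 10 months, and in the averaged, interaction and age comparisons that use these libraries, therefore rest on labels that Mapt did not follow. Of 858 genes that reached at least 50 FPKM in a library, 96 were listed at exactly 0 in another, and Ppia, a protein folding enzyme of all cells, was listed at 0 in 5 libraries. A 0 is for that reason given only as listed at 0. The 10-month transgenic 1 library stood apart by its pituitary genes, which summed to 13470 FPKM over 6 genes against at most 53.8 FPKM in any other library. Choroid plexus genes summed to 729, 439 and 303 FPKM over 4 genes in 3-month control 1, 10-month transgenic 1 and 3-month transgenic 3, against 5.24 to 63.5 FPKM in the rest, and 5 oligodendrocyte genes were highest in 10-month transgenic 3, at 533 FPKM.

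The labelled tissue and the marker set could be checked against each other. All 6 markers of excitatory cortical neurons averaged at least 1 FPKM over the 12 libraries, with summed levels of 238 to 719 FPKM. Striatal projection neurons, which also make GABA, were represented by 3 of 8 markers at a mean of at least 1 FPKM, and their summed level ran from 16.1 to 66.1 FPKM. Their receptor genes Drd1, Drd2 and Adora2a were listed at 0 in 7, 9 and 9 of the 12 libraries. Of the inhibitory markers, the synthesis, transport and peptide genes had medians of 4.37 to 134 FPKM over the 12 libraries. Reln was under 0.1 FPKM in 11 of 12 and reached 1.41 FPKM in 10-month transgenic 2, and Erbb4 was listed at 0 in 11 of 12.

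**Figure D1:**
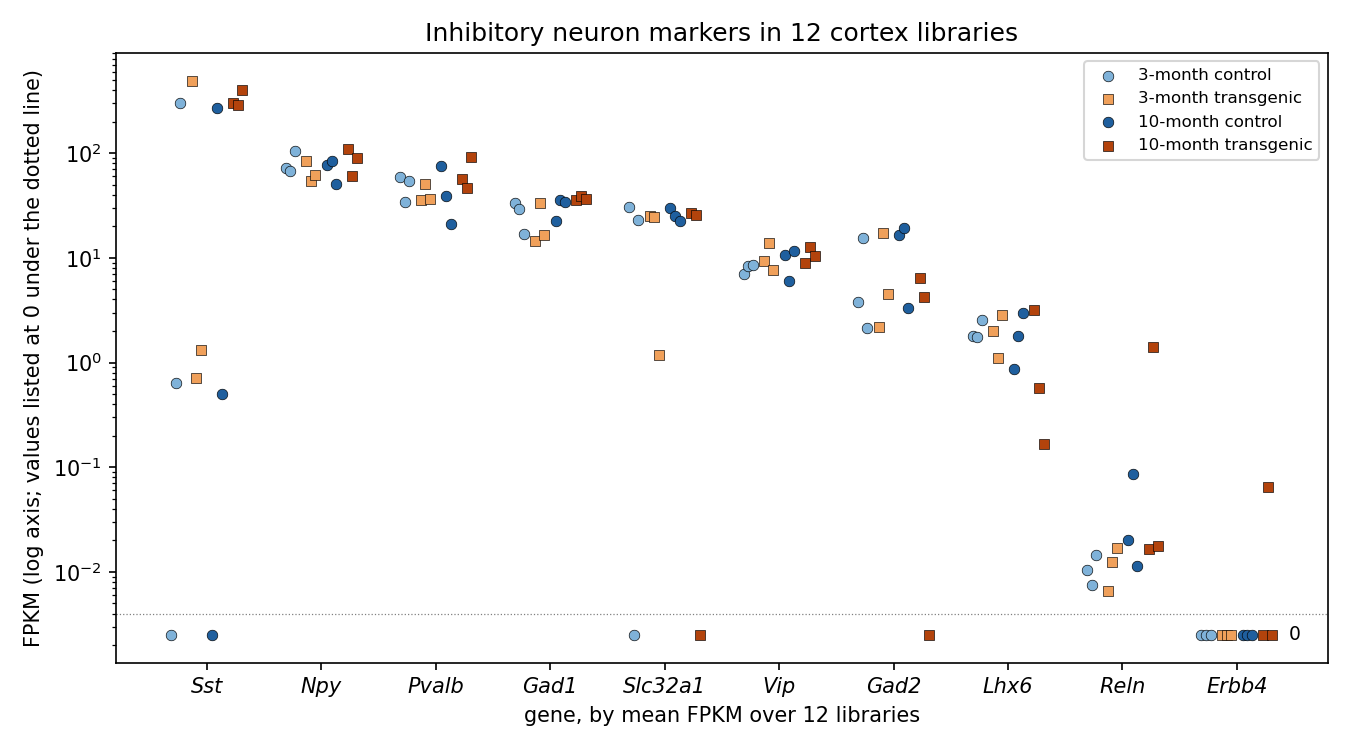
FPKM (log axis) of the 10 inhibitory neuron markers in each of the 12 libraries, ordered by mean, with values listed at 0 drawn under the dotted line. Circles are control and squares transgenic libraries. Npy, Pvalb, Gad1 and Vip form narrow bands, whereas Sst splits into 6 libraries at 267 FPKM or more and 6 at 1.33 FPKM or less.

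The genes of GABA synthesis and vesicle loading were described first. Gad1 encodes the larger glutamate decarboxylase, which makes most of the GABA in the cell body and lies on chromosome 2 (70553072 to 70602014, plus strand, GRCm38). Its level was 33.1, 29.0 and 17.0 FPKM in the 3-month controls and 14.5, 33.6 and 16.6 FPKM in the 3-month transgenic libraries. The 10-month controls had 22.6, 35.6 and 34.0 FPKM and the 10-month libraries labelled transgenic 35.4, 39.1 and 36.2 FPKM. Gad1 was thus present in every library within a 2.70-fold range, and the genotypes overlapped at both ages, at 10 months only in that control 2 lay just above transgenic 1. The genotype difference was -0.34 on the log2(FPKM + 0.1) scale at 3 months (SE 0.35, 95% interval -1.12 to 0.45) and 0.29 at 10 months (SE 0.35, interval -0.49 to 1.07).

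Gad2 encodes the smaller decarboxylase, found mainly at nerve terminals (chromosome 2, 22622205 to 22693874, plus strand). It was at 3.82, 15.4 and 2.12 FPKM in the 3-month controls and 2.21, 17.4 and 4.52 FPKM in the 3-month transgenic libraries. At 10 months it was at 16.7, 19.2 and 3.34 FPKM in the controls and at 6.39 and 4.22 FPKM in those labelled transgenic, with the transgenic 3 library listed at 0. Each group but the last held both high and low libraries, and the 10-month genotypes overlapped. The log2 difference at 10 months was -2.88 (SE 1.53, interval -6.28 to 0.53), and it was -0.97 without the 10-month transgenic 3 library.

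Slc32a1 encodes the vesicular GABA transporter, which also carries glycine (chromosome 2, 158610767 to 158615748, plus strand). It was at 30.4 and 23.2 FPKM in the 3-month control 1 and 3 libraries and listed at 0 in control 2. In the 3-month libraries labelled transgenic it was at 25.0, 24.6 and 1.17 FPKM. In the older mice Slc32a1 was at 29.8, 25.1 and 22.3 FPKM in the controls and at 26.9 and 25.7 FPKM in transgenic 1 and 2, and it was listed at 0 in transgenic 3. Slc32a1 therefore sat between 22.3 and 30.4 FPKM in 9 libraries of all 4 groups and far below that in the other 3. The log2 genotype difference at 10 months was -2.64 (SE 2.58, interval -8.39 to 3.10) and turned to 0.04 without the 10-month transgenic 3 library. At 3 months it was 1.16 (SE 2.58, interval -4.59 to 6.90) and turned to -1.53 without the 3-month control 2 library.

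**Figure D2:**
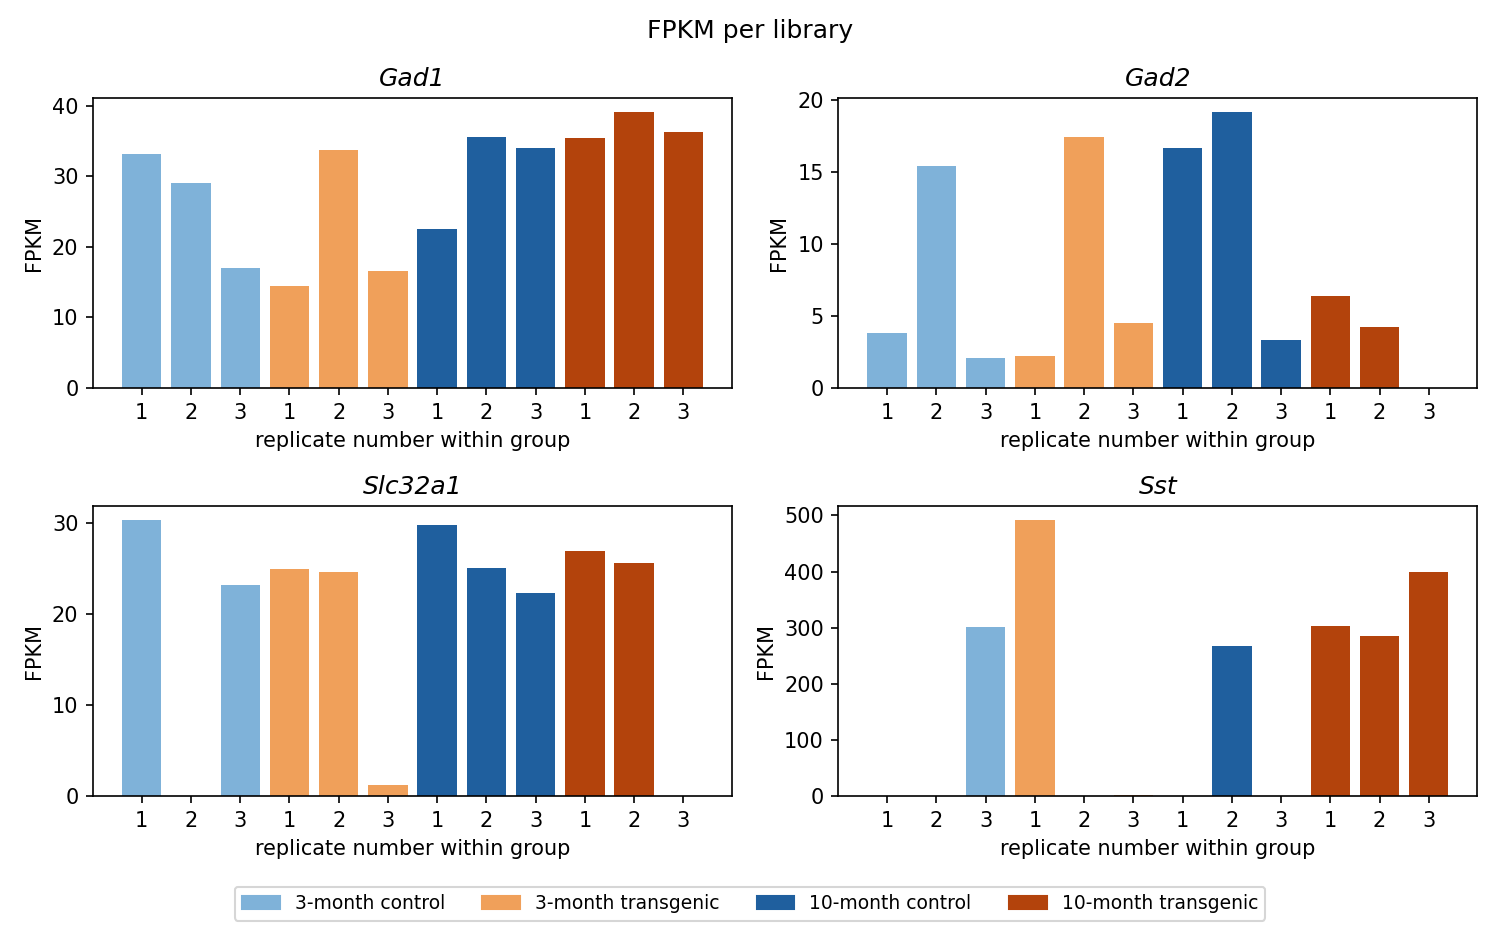
FPKM of Gad1, Gad2, Slc32a1 and Sst in each library, as bars from 0, coloured by group and numbered by replicate within the group. The low libraries differ between genes: Slc32a1 is low in 3-month control 2, 3-month transgenic 3 and 10-month transgenic 3, whereas Sst is low in 6 libraries and at 400 FPKM in 10-month transgenic 3.

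Sst was the most variable of the class markers. It encodes the precursor of somatostatin, an inhibitory neuropeptide, and is a short gene (chromosome 16, 23889573 to 23890958, minus strand) with 1 annotated transcript and no overlapping gene in the annotation. In the 3-month controls it was listed at 0 in control 1 and stood at 0.632 FPKM in control 2 and 302 FPKM in control 3. In the 3-month libraries labelled transgenic it was at 492, 0.717 and 1.33 FPKM. Both 3-month groups held 1 high library and 2 very low ones. In the 10-month controls it was listed at 0 in control 1 and stood at 267 and 0.495 FPKM in controls 2 and 3. The 10-month libraries labelled transgenic were all high, at 304, 286 and 400 FPKM, and did not overlap the controls.

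Groups that did not overlap in that direction were found for 4.37% of all tested genes at 10 months, so this is not rare in these tables. The log2 difference for Sst at 10 months was 7.02 (SE 3.63, interval -1.07 to 15.1), a size that the pseudocount sets where libraries are listed at 0, and it did not pass (limma adjusted p = 0.969). It was 5.47 with a pseudocount of 1 and 0.29 when values under an eighth of the gene's median were set to missing, a setting chosen after seeing the data that left 10-month control 2 as the only control library. In the authors' deposited table the same comparison is given as a 46.9-fold change with a p-value of 0.173 and a q-value of 0.854. The summed excitatory neuron markers did not overlap between the 10-month labels either. They were at 590 to 664 FPKM in controls and 474 to 584 FPKM in transgenic libraries. Each of these transgenic libraries had 1 of the 6 markers listed at 0, and each control had 0. Among single genes 8.26% did not overlap at 10 months in either direction, and no such share was computed for sums. The part of the excitatory markers in the Sst and receptor values of that age was not tested. At 3 months the Sst log2 difference was 1.57 (SE 3.63, interval -6.52 to 9.65).

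Large drops in single libraries were not limited to these genes. A median of 5 FPKM or more was reached by 4390 genes, of which 17% had at least 1 library under an eighth of their own median. Among the inhibitory markers, Slc32a1 had 3 such libraries and Sst 6, while Gad1, Pvalb, Vip and Npy had none. Measured against the highest library instead, 3 of the 7 markers that reached 5 FPKM (Sst, Slc32a1 and Gad2) had at least 2 libraries under an eighth of it, against 23.7% of 6429 genes.

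Pvalb encodes parvalbumin, a calcium buffer of fast-spiking basket and chandelier cells (chromosome 15, 78191114 to 78206400, minus strand). It was at 58.8, 34.0 and 54.2 FPKM in the 3-month controls and 35.5, 50.4 and 36.2 FPKM in the 3-month transgenic libraries. The 10-month controls were at 74.9, 38.9 and 20.9 FPKM, and the libraries labelled transgenic reached 56.6, 46.0 and 91.0 FPKM. The genotypes overlapped at both ages, and the 10-month controls alone spanned most of the range of all 12 libraries. The log2 genotype difference was -0.25 at 3 months (SE 0.44, interval -1.23 to 0.74) and 0.65 at 10 months (SE 0.44, interval -0.33 to 1.64).

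Npy encodes neuropeptide Y, made by neurogliaform cells and by part of the somatostatin cells (chromosome 6, 49822710 to 49829507, plus strand). It was at 72.3, 67.0 and 104 FPKM in the 3-month controls and 83.5, 54.1 and 61.2 FPKM in the 3-month transgenic libraries. At 10 months it was at 77.9, 83.8 and 50.5 FPKM in the controls and 109, 60.9 and 90.1 FPKM in those labelled transgenic. Npy had the narrowest span of the markers, 2.15-fold from lowest to highest. It stood at 50.5 to 77.9 FPKM in the 6 libraries where Sst was at 1.33 FPKM or less. In the 6 where Sst was at 267 FPKM or more, Npy stood at 104, 83.5, 83.8, 109, 60.9 and 90.1 FPKM. Whether Npy moved with Sst was not tested. The log2 genotype difference of Npy was -0.29 at 3 months (SE 0.29, interval -0.94 to 0.37) and 0.28 at 10 months (SE 0.29, interval -0.37 to 0.94).

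Vip encodes vasoactive intestinal peptide, the marker of interneurons that inhibit other interneurons (chromosome 10, 5639218 to 5647617, plus strand). It was at 6.94, 8.31 and 8.58 FPKM in the 3-month controls and 9.27, 13.8 and 7.74 FPKM in the 3-month transgenic libraries. Vip at 10 months was at 10.7, 6.02 and 11.6 FPKM in the controls and 8.86, 12.7 and 10.3 FPKM in those labelled transgenic. The genotypes overlapped at both ages. The log2 genotype difference was 0.33 at 3 months (SE 0.30, interval -0.34 to 1.00) and 0.21 at 10 months (SE 0.30, interval -0.46 to 0.88).

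Sst and Vip are textbook targets of CREB, an activity-regulated factor that binds the cAMP response element, and their start regions are shown because letters of that element stand before a gene that split between libraries and a gene that did not. The sequences are from RefSeq on GRCm38.p6, 30 bases around the element for Sst and the 100 bases before the start for Vip, and capitals mark the full palindrome TGACGTCA in Sst and its first part, TGACG, in Vip.
Sst, chr16:23890874-23890903, minus strand: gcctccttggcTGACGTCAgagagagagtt
Vip, chr10:5639118-5639217, plus strand: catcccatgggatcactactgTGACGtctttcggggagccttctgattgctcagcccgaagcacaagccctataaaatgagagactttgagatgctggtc
The palindrome begins 48 bases before the RefSeq start of Sst (position 23890844). The GENCODE gene given above starts 114 bases before that, at 23890958, so by that annotation the same letters lie inside the transcript. The shorter word begins 79 bases before the Vip start, which is the same in both annotations. In the 250 bases before the RefSeq start, TGACGTCA was found in 1.55% of 32851 promoters and, of the 13 promoters that matched the 10 markers, in that of Sst alone. The short word, TGACG on either strand (CGTCA on the other), which the palindrome also contains, was found in 17.8% of all promoters and in 3 of the 13, those of Sst, Vip and Gad2. These are matches of letters and say nothing of binding in these animals.

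Lhx6, Reln and Erbb4 were the lowest markers. Lhx6 encodes the LIM homeodomain factor that specifies parvalbumin and somatostatin cells as they leave the medial ganglionic eminence (chromosome 2, 36081953 to 36105408, minus strand). It was at 1.80, 1.77 and 2.57 FPKM in the 3-month controls and 2.02, 1.10 and 2.83 FPKM in the 3-month transgenic libraries. At 10 months it was at 0.866, 1.80 and 2.96 FPKM in the controls and 3.20, 0.573 and 0.166 FPKM in those labelled transgenic, which held both its highest and its lowest value. The log2 genotype difference was -0.12 at 3 months (SE 0.84, interval -1.99 to 1.76) and -1.08 at 10 months (SE 0.84, interval -2.96 to 0.79), and the latter was -0.25 without the 10-month transgenic 3 library.

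Reln encodes reelin, a large secreted protein that guides cortical layering and is kept by neurogliaform and some somatostatin cells in the adult (chromosome 5, 21884454 to 22344702, minus strand). It stayed between 0.00655 and 0.0863 FPKM in 11 libraries and reached 1.41 FPKM in the 10-month transgenic 2 library. Erbb4 encodes the neuregulin receptor of interneurons (chromosome 1, 68032186 to 69108059, minus strand). It was listed at 0 in 11 libraries and stood at 0.0651 FPKM in that same 10-month transgenic 2 library.

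Since FPKM is a level per length, the markers could be ordered. By mean over the 12 libraries the order was Sst, Npy, Pvalb, Gad1, Slc32a1, Vip, Gad2, Lhx6, Reln and Erbb4, from 171 FPKM for Sst to 0.00542 FPKM for Erbb4. The ranges of each pair of neighbours overlapped, so by that measure no neighbours stood apart. Within libraries, Reln was above Erbb4 in 12 of 12, and Npy was above Pvalb, Pvalb above Gad1 and Lhx6 above Reln in 11 of 12. Sst was above Npy in only 6 of 12, and the highest marker was Sst in 6 libraries and Npy in the other 6.

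Over all markers, no genotype difference passed at either age. At 10 months 0 of the 8 tested genes passed (limma, Benjamini-Hochberg adjusted over 9846 genes), against 0.0102% of all genes, and 0 had an unadjusted p under 0.05, against 4.4%. At 3 months again 0 of 8 passed, against 0.0406%, and 0 had an unadjusted p under 0.05, against 3.39%. Higher values with the transgenic label were found for 5 of 8 at 10 months (median log2 difference 0.25, against 0.01 over all genes) and for 4 of 8 at 3 months (0.02 against 0.02). At 10 months all 4 class markers, Pvalb, Sst, Vip and Npy, had positive differences and 2 of the 3 GABA synthesis and loading genes negative ones, none of them past the threshold. Over all genes 50.9% of the differences were positive at 10 months and 52.1% at 3 months. Groups did not overlap for 1 of 8 at 10 months, which was Sst, and for 0 of 8 at 3 months, against 8.26% and 7.98% of all genes in either direction.

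Single libraries moved these differences by more than 1.5 times. At 10 months that of Pvalb was 0.20 without control 3, 0.37 without transgenic 3 and 1.11 without control 1, that of Gad1 was 0.0836 without control 1, and that of Npy was 0.0586 without control 3, 0.10 without transgenic 1 and 0.52 without transgenic 2. The 10-month value of Vip ran from -0.0824 without control 2 to 0.38 without control 3. At 3 months leaving out 1 library gave -0.71 to -0.10 for Gad1, -0.49 to -0.0969 for Pvalb, -0.47 to -0.0949 for Npy and 0.0971 to 0.51 for Vip. None of these passed.

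**Figure D3:**
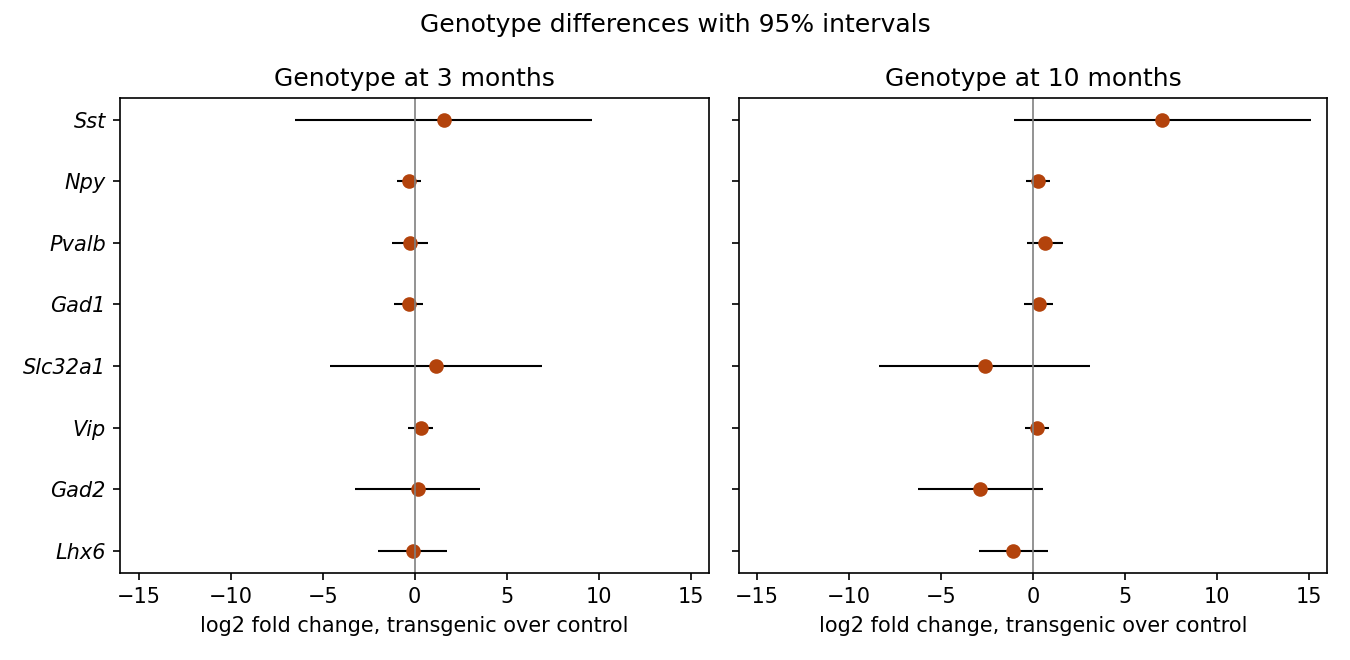
Log2 fold change of transgenic over control for the 8 tested markers at 3 and at 10 months, with 95% intervals from the fit over 12 libraries. All intervals include 0, and those of Sst, Slc32a1 and Gad2 are several times wider than those of Npy, Vip, Gad1 and Pvalb.

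Averaged over both ages, 0 of 8 passed, against 0.0508% of all genes, and 0 had an unadjusted p under 0.05, against 3.75%. Of the averaged differences 3 of 8 were positive, against 51.2% of all genes. The narrowest intervals were those of Npy, at 0.00 (SE 0.21, interval -0.47 to 0.46), Vip, at 0.27 (SE 0.21, interval -0.20 to 0.74), and Gad1, at -0.02 (SE 0.25, interval -0.58 to 0.53). The age by genotype interaction, the change of the genotype difference from 3 to 10 months, passed for 0 of 8, against 0.0508%, and 0 had an unadjusted p under 0.05, against 3.32%. Positive interactions were found for 4 of 8, against 48.9%. The genotype differences are thus not shown to differ between the ages.

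Age was compared within each genotype label, with the limit that each age is also a separate deposited table, so age and table cannot be told apart. In controls 0 of 8 markers passed, against 0.0305% of all genes, and 0 had an unadjusted p under 0.05, against 4.19%. Their differences were positive for 4 of 8, against 56%, and the ages did not overlap for 0 of 8, against 10.1% of all genes (6.8% higher and 3.25% lower at 10 months). With the transgenic label, 0 of 8 passed between the ages, against 0.0203%, and 1 had an unadjusted p under 0.05, against 4.31%. That gene was Gad1, at 14.5, 33.6 and 16.6 FPKM at 3 months and 35.4, 39.1 and 36.2 FPKM at 10 months, groups that did not overlap, with means of 21.6 ± 10.5 and 36.9 ± 1.97 FPKM (SD, n = 3). The summed level of the striatal markers, whose cells also use Gad1, was 25.3 to 42.3 FPKM and 31.1 to 43.8 FPKM in these groups, and its part in the difference was not tested. The Gad1 log2 difference was 0.87 (SE 0.35, interval 0.09 to 1.65, limma adjusted p = 0.974), and among all genes 9.43% did not overlap between these ages, 5.78% being higher and 3.65% lower at 10 months. In controls Gad1 overlapped between the ages, with a log2 difference of 0.25 (SE 0.35, interval -0.53 to 1.03).

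Whether markers rose and fell together across libraries was examined for 8 pairs. In 5 of them a gene (Gad2, Slc32a1 or Sst) had its log2 values split by a gap of more than 0.5 of their range, so no correlation is given. The gap was 0.616 of the range for Sst, with 6 libraries on each side, 0.589 for Gad2, where it set apart the 1 library listed at 0, and 0.502 for Slc32a1, just past a limit that was set after the data were seen. For the other 3 pairs, over 12 libraries and on the log2 scale, none passed. Gad1 and Pvalb had a Pearson r of 0.12 (permutation p = 0.699, adjusted over 3 pairs 0.699) and a Spearman rho of 0.24 (permutation p = 0.455, adjusted 0.682). Gad1 and Vip had an r of 0.19 (permutation p = 0.543, adjusted 0.699) and a rho of 0.26 (permutation p = 0.417, adjusted 0.682). Gad1 and Npy had an r of -0.20 (permutation p = 0.525, adjusted 0.699) and a rho of -0.02 (permutation p = 0.956, adjusted 0.956).

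Within an age the signs varied. In the 6 libraries of 3 months the r of Gad1 was 0.42 with Pvalb, 0.22 with Vip and -0.56 with Npy (exact permutation p = 0.317, 0.807 and 0.258). In the 6 of 10 months it was -0.29, -0.09 and -0.04 (exact permutation p = 0.533, 0.828 and 0.947). In the same order the Spearman rho was 0.43, 0.03 and -0.49 at 3 months and 0.09, 0.09 and 0.14 at 10 months. At 10 months the signs of rho were thus opposite to those of r. Without the 2 libraries farthest from the median of Gad1, 3-month transgenic 1 and 3, r was -0.17 with Pvalb, 0.11 with Vip and -0.37 with Npy.

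Other genes, of GABA handling, of interneuron identity and of the receptors and partners of the markers, were read from lists chosen for their roles. These lists are not limited to genes of inhibitory neurons, and in bulk cortex their values cannot be assigned to such cells. Of the listed genes, 0 passed in any comparison (limma, adjusted over all genes). An unadjusted p under 0.05 was found for 1 of the 34 tested in the genotype comparison at 10 months, against 4.4% of all genes (Cnr1, the cannabinoid receptor of Cck basket cells, listed at 0 in the 10-month control 3 library) and for 1 at 3 months, against 3.39% (Npy1r), both named after their values were seen. It was found for 0 of 34 averaged over the ages (3.75% of all genes), for Cck and Npy1r in the interaction (3.32%), for Npy1r with age in controls (4.19%), and for Calb2 and Npy1r with age in transgenics (4.31%). Of 7 genes of GABA handling, 6 were tested, of which 3 were positive at 10 months and 1 at 3 months. Slc12a5, the chloride exporter KCC2 that makes GABA inhibitory, ranged from 3.20 to 66.4 FPKM over the 12 libraries, with a median of 40.8. Its lowest values were in the 3-month control 3 library (3.20 FPKM) and the 10-month transgenic 2 library (3.54 FPKM). The former also had the lowest summed level of excitatory neuron markers, 238 FPKM, whereas in the latter that sum was 542 FPKM. What part these sums have in the Slc12a5 values was not tested.

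Of 14 interneuron transcription factors, 9 were tested, with 5 positive differences at 10 months and 3 at 3 months. Satb1, which matures somatostatin cells, stayed between 1.75 and 4.33 FPKM (median 2.37). Prox1 and Sp8 were listed at 0 in all 12 libraries. Of 18 further class markers, 12 were tested, with 7 positive differences at 10 months and 8 at 3 months. Cck, the cholecystokinin gene that excitatory neurons also use, ranged from 74.2 to 272 FPKM (median 107), and Lamp5, which marks neurogliaform cells and upper-layer neurons, from 18.6 to 82.6 FPKM (median 34.5). Chodl and Kcnc2 were listed at 0 throughout.

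Of 9 receptors for the 3 peptides, 5 were tested, with 1 positive difference at 10 months and 2 at 3 months (median log2 difference -2.23 at 10 months and -0.54 at 3 months). The positive difference at 10 months was that of Sstr1, at 2.75. Sstr1 passed the filter only through the 10-month transgenic group, with a mean of 1.18 FPKM there and 0.42 FPKM or less in each other group. Its sign at 10 months therefore followed from the filter and says nothing of genotype. Sstr2, the main somatostatin receptor of cortex, was at 8.30, 9.37 and 10.3 FPKM in the 3-month controls and 12.9, 12.2 and 13.8 FPKM in the 3-month transgenic libraries. At 10 months it was at 13.1, 11.5 and 11.5 FPKM in the controls and 9.88 and 7.47 FPKM in transgenic 2 and 3, and it was listed at 0 in transgenic 1. The libraries labelled transgenic thus lay above the controls at 3 months and below them at 10 months, without overlap, as 4.44% of all genes did upward at 3 months and 3.89% downward at 10 months. Sstr3, a somatostatin receptor of neuronal cilia, ranged from 0.0354 to 7.26 FPKM (median 2.28).

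Npy1r, the Y1 receptor for neuropeptide Y, is named after its values were seen. It was listed at 0 in 3-month controls 1 and 3 and stood at 0.209 FPKM in control 2, against 4.27, 4.11 and 1.84 FPKM in the 3-month transgenic libraries. Npy1r at 10 months was at 2.49, 0.950 and 5.17 FPKM in the controls and 0.410 and 2.59 FPKM in transgenic 2 and 3, with transgenic 1 listed at 0. It did not pass at 3 months (limma unadjusted p = 0.00273, adjusted p = 0.868).

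Of 6 partners of reelin and neuregulin, 2 were tested, with 1 positive difference at 10 months and 0 at 3 months. Dab1, the adaptor that carries the reelin signal inside the cell, stayed between 4.62 and 8.16 FPKM (median 6.45), and Vldlr, a reelin receptor, was listed at 0 in 1 library and reached 2.05 FPKM (median 1.35). Dab1 was therefore present in each library, including the 11 in which Reln was at 0.0863 FPKM or less.

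**Figure D4:**
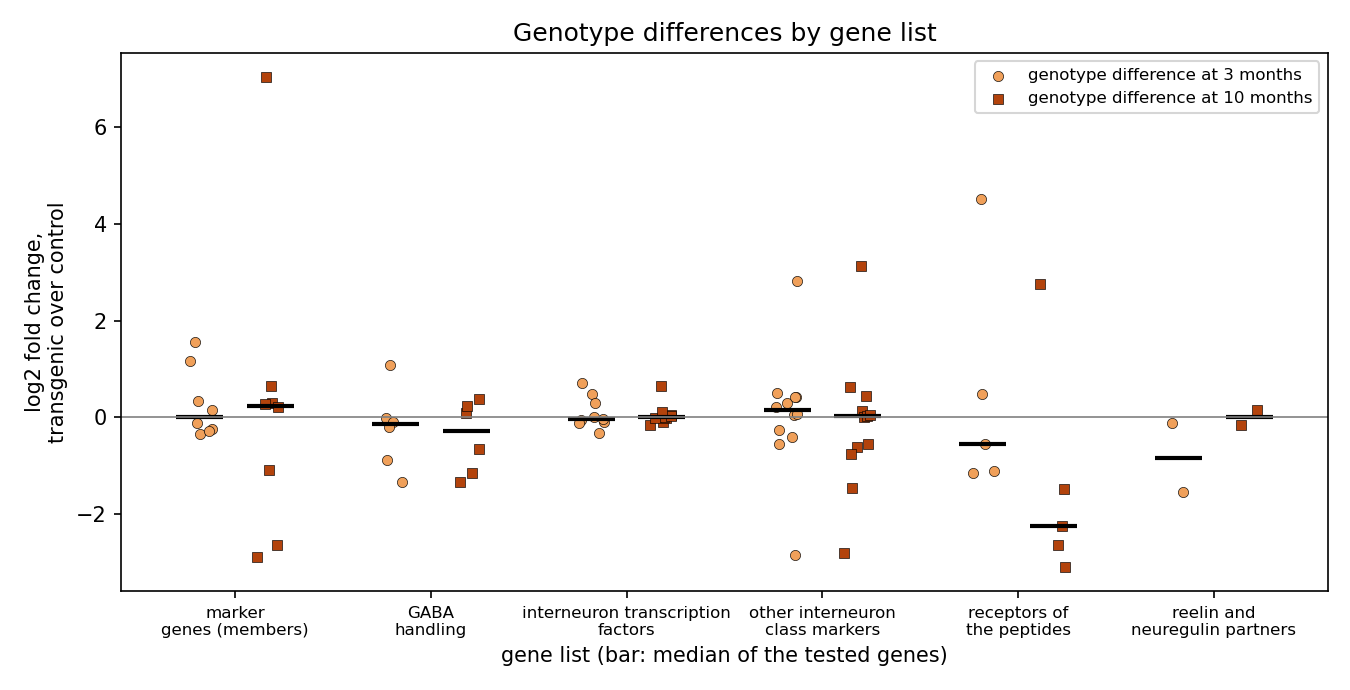
Log2 fold change of transgenic over control for the tested genes of each list, as circles at 3 months and squares at 10 months, with a bar at each median. The medians of the markers are 0.02 at 3 months and 0.25 at 10 months, and that of the peptide receptors is at -2.23 at 10 months over 5 genes. Among these 5, Sstr1 passed the filter only through the 10-month transgenic group.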

How the data were processed

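FPKM per gene and library were deposited by the authors, in a table for each age. Upstream tools, per the submitters' processing notes, include StringTie (1.3.0), HISAT2 (2.0.4), SAMtools and R (3.4.2), and the builds named there are mm10 and GRCm38. Options and annotation were not given in the sources used here. Each deposited table adds the authors' fold (a ratio) and log2 fold per gene, and p-values and q-values whose test it does not name.

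From these values, log2(FPKM + 0.1) was fitted with limma 3.58.1 in R 4.3.3 (a mean per group over 12 libraries, eBayes with trend and robust). The groups share an estimate of the spread of each gene, so an SE is not that of the compared libraries alone. Genes with a group mean of at least 1 FPKM entered, 9846 in all. P-values were adjusted by Benjamini-Hochberg over all of these, at a threshold of 0.05. The script was tested on simulated data. Correlations used 100000 permutations, or all 720 for 6 libraries, in Python 3.11.15 with numpy 2.4.6. The rule that a gap of more than 0.5 of the range bars a correlation was set after the data were seen.

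The 10 markers and the gene lists were chosen with earlier results of these data known. From each further list, the 2 genes with the highest mean FPKM and any gene past the threshold were to be named, of which some are not reported here. Genes named as listed at 0 throughout, and Npy1r, Cnr1 and Calb2, were picked after their values were seen. Coordinates and transcript numbers are those of the GENCODE annotation of GRCm38. Libraries of a group are biological replicates per the labels; whether each is a single animal is not stated there. Same-numbered libraries of different groups did not deviate together (r from -0.12 to 0.09 over 18 pairs), so the numbers were not used as pairs. Alternatives were other pseudocounts, filters and scalings, a replicate block, eBayes without trend and robust, missing values in place of zeros, separate fits for the ages, and dropping every library once.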

Additional observations from a re-analysis of the deposited data

Results flagged for a closer look

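Sstr2, the somatostatin receptor, was picked by a rule that sought groups without overlap in opposite directions at the 2 ages. Every library labelled transgenic lay above every control at 3 months and below every control at 10 months. This pattern is the rule itself and no separate support. Of all tested genes 4.44% lay above without overlap at 3 months and 3.89% below at 10 months, and the share that did both was not computed. The log2 genotype difference was 0.48 at 3 months (SE 1.37) and -2.63 at 10 months (SE 1.37), a difference between the ages of -3.10 (SE 1.94, interval -7.43 to 1.23). These SEs come from a spread shared by all groups and do not measure that of the 3-month libraries alone. The SD was 1.00 FPKM in controls and 0.80 FPKM in transgenic libraries at 3 months, against 0.92 and 5.15 FPKM at 10 months. The interaction did not pass (limma unadjusted p = 0.141, adjusted p = 0.987), and over the alternatives the difference ranged from -4.27 to -0.95. The value nearest 0 came without the 10-month transgenic 1 library, in which Sstr2 was listed at 0 and pituitary genes summed to 13470 FPKM; their part in the result was not tested. The direction at 10 months rests on labels that Mapt did not follow, at 42.6, 12.4 and 3.31 FPKM in the transgenic libraries against 42.7, 8.13 and 9.08 FPKM in the controls.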

How the results depend on the processing

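In each of the 6 comparisons 0 of the tested markers passed under every alternative run. The order of levels was checked only with median-ratio size factors, 1 of the scalings, and with each library left out in turn, and it was kept. The replicate block also called 0 markers, and over all genes 0 at 10 months, 4 at 3 months, 1 averaged, 1 in the interaction, 3 with age in controls and 2 in transgenics. Counts over all genes were small and moved by more than 1.5 times: 1 at 10 months (0 to 8 leaving out a library, 0 to 2 otherwise), 4 at 3 months (4 to 12, 2 to 14), 5 averaged (1 to 10, 1 to 9), 5 in the interaction (2 to 11, 1 to 9), 3 with age in controls (3 to 10, 0 to 7) and 2 in transgenics (2 to 13, 1 to 7). The causes of these moves were not tested.

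Directions turned when values listed at 0 were missing. Slc32a1 then had log2 differences of 0.0394 at 10 months, -1.53 at 3 months, 1.57 in the interaction, -0.0542 with age in controls and 1.51 in transgenics, and Sst had -0.84 at 3 months. With values under an eighth of the median missing, a setting chosen after seeing the data, Slc32a1 had 0.0394, -0.098, 0.14, -0.0542 and 0.0831 in the same order, and Sst -0.42 in the interaction and -0.59 with age in transgenics; for Sst this left 1 library in each 3-month group and in the 10-month controls. Leaving out each library in turn gave, at 3 months, -0.65 to 0.95 for Gad2, -1.38 to 4.94 for Sst, -0.41 to 0.24 for Lhx6 and -1.53 to 2.60 for Slc32a1. At 10 months it gave -4.0 to 0.0394 for Slc32a1 and -0.0824 to 0.38 for Vip. Averaged, it gave -0.21 to 0.0948 for Gad1, -0.11 to 0.11 for Npy, -0.0253 to 0.43 for Pvalb and -2.09 to 0.60 for Slc32a1, and in the interaction -0.41 to 0.11 for Vip. With age in controls it gave -0.0402 to 0.45 for Gad1, -3.52 to 3.22 for Sst, -0.64 to 0.19 for Lhx6, -0.74 to 0.18 for Pvalb, -0.34 to 0.0220 for Npy and -0.0542 to 4.07 for Slc32a1. With age in transgenics it gave -2.60 to 1.51 for Slc32a1 and -0.11 to 0.31 for Vip. The r of Gad1 and Pvalb ran from -0.0104 to 0.32. Sst at 10 months stayed positive, from 0.29 to 10.38. A filter at 5 FPKM left out Lhx6. With 3 libraries a group and read depth unknown, small differences were not detectable. Large ones did not pass either where libraries varied widely. At 10 months these include the log2 differences of Sst (7.02, SE 3.63), Gad2 (-2.88, SE 1.53) and Slc32a1 (-2.64, SE 2.58). A marker that did not pass is thus not shown to be unchanged.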

Other observations

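By Pearson r of log2(FPKM + 0.1) over the 12 libraries, the 3 of 9845 tested genes most like Gad1 were Rps6ka1 (0.90), Scx (0.90) and Tnpo2 (0.88). These are the highest of many values over the same libraries and are given as a description. No such values are given for Gad2 and Slc32a1, whose log2 values fall on both sides of a wide gap.

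The genes that overlap the markers in the annotation were low or listed at 0 in these tables. The antisense genes over Gad1 and Slc32a1 and the genes within Gad2 were listed at 0 in all libraries. The highest value of any overlapping gene was 0.291 FPKM, for a gene within Reln, against 0.223 FPKM within Lhx6 and 0.0497 FPKM within Erbb4.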
